A study of Homo sapiens with 4 samples.

Results

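Nascent RNA of 10 NF-κB feedback and chemokine genes was examined in HCT116 cells with and without depletion of the transcriptional regulator KAP1 (gene TRIM28). The genes were listed by name, with earlier results of these data known, as CXCL1, CXCL2, CXCL3, CXCL8, NFKBIA, TNFAIP3, NFKB1, NFKB2, RELB and BIRC3. All 10 were among the 19901 protein-coding genes counted. HCT116 is a colon cancer cell line. In the KAP1_dTAG_CloneD5 derivative, 1 single-sorted clone, both KAP1 alleles carry an FKBP-derived degron through which the compound dTAG-13 sends the protein to the proteasome. The 2 DMSO libraries and the 2 dTAG libraries came from that clone, so that the controls carried the degron too, and they differed in 8 h with DMSO or with 500 nM dTAG-13. The cells grew in serum-containing medium and were neither starved nor stimulated, and the comparison asks whether depletion of KAP1 changed ongoing transcription. No library came from cells without the degron given dTAG-13, so effects of the compound and of KAP1 depletion cannot be told apart.

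RNA was labeled for 10 min with 500 μM 4-thiouridine (4sU), a uridine analog by which newly made transcripts can be pulled out of total RNA (TT-Seq). The deposited counts cover the whole gene, introns included, and summed to between 93105627 and 102314741 per library. A minimum of 50 counts in each of the 4 libraries left 12612 genes, 7 of the 10 among them, which were tested with edgeR's quasi-likelihood F test. A gene was called at a Benjamini-Hochberg adjusted p under 0.05. Counts of 5 epithelial marker genes were between 12215 and 43667 in every library, while those of 10 markers of leukocytes, endothelium and fibroblasts reached at most 538, with the leukocyte gene PTPRC at 0 to 1. TRIM28 RNA was 65.7 ± 5.72 CPM (counts scaled to a common library size by TMM) with DMSO and 50.7 ± 3.96 with dTAG (SD, n = 2). It was called lower (log2 fold change -0.37, standard error 0.09, adjusted p = 0.019 by edgeR). With trends on GC content and length removed, the call was lost (-0.10, adjusted p = 0.17 by edgeR), and with ERCC spike-in totals as library sizes the change was 0.28. Because dTAG-13 acts on the protein, TRIM28 RNA does not check the labels. In such bulk libraries, fewer cells making an RNA and less RNA per cell cannot be told apart.

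NF-κB is a family of dimeric transcription factors held in the cytoplasm by IκB proteins until a receptor activates the IKK complex, which marks IκB for degradation. Released dimers bind κB sites and switch on inflammatory genes, among them the CXC chemokines that attract neutrophils, and also genes whose products end the response, such as IκBα (NFKBIA) and A20 (TNFAIP3). In the noncanonical branch, the kinase NIK (MAP3K14) leads to processing of the NFKB2 precursor p100 to p52, which pairs with RELB. In colon epithelium and its tumors, these chemokines are induced by cytokines and bacterial products.

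RefSeq promoter windows on GRCh38.p14, from 250 bases before to 50 bases after the start, were matched for 9 of the 10 genes, all but RELB, as 12 windows. The sequences below are shown because a common κB element is what most of these genes share. The 9-letter core GGAATTTCC, searched on both strands, was found in 6 of the 9 genes and in 0.46% of 35116 promoter windows of the same length. Each line gives 30 bases 5′ to 3′ on the gene's strand, with the core, or its reverse complement in NFKBIA, in capitals.
CXCL1: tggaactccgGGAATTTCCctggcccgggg
CXCL2: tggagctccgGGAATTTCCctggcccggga
CXCL3: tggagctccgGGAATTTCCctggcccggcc
CXCL8: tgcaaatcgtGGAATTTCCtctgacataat
NFKB1: gacgtcagtgGGAATTTCCagccaggaagt
NFKBIA: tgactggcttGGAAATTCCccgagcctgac

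These sites lie at chr4:73869305-73869334 (plus strand) for CXCL1, chr4:74099253-74099282 (minus strand) for CXCL2 and chr4:74038748-74038777 (minus strand) for CXCL3. Those of CXCL8 at chr4:73740468-73740497 and NFKB1 at chr4:102501301-102501330 are on the plus strand, and that of NFKBIA at chr14:35404811-35404840 is on the minus strand. The sites of CXCL1, CXCL2 and CXCL3 matched one another at 27 or 28 of 30 bases, and each of them matched that of CXCL8 at only 16 or 17. The longer κB consensus, which overlaps the core in all of these but CXCL8, was found in 8 of the 9 genes, also NFKB2, TNFAIP3 and BIRC3, against 11.3% of all windows. The AP-1 motif TGANTCA was found in 1 gene, CXCL8, against 7.71% of windows. A match of letters is a description of the window and does not show that a factor bound there in these cells.

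With DMSO, levels per kilobase of gene covered more than 2 orders of magnitude, and NFKBIA stood far above the other genes at 12.02 CPM per kilobase. It was followed by NFKB2 at 2.10, NFKB1 at 1.06, TNFAIP3 at 0.694, CXCL2 at 0.561, RELB at 0.327, CXCL1 at 0.304 and CXCL3 at 0.247 CPM per kilobase. BIRC3 and CXCL8 were lowest, at 0.0737 and 0.0736 CPM per kilobase. In that order, the 2 DMSO libraries overlapped between RELB and CXCL1, whose values were 0.311 and 0.344 against 0.251 and 0.357, and between BIRC3 and CXCL8. The other neighbors did not overlap with DMSO, although CXCL1 and CXCL3 came close. Among all 19901 genes, NFKBIA was at percentile 98.1 of level per kilobase, and CXCL8 was at percentile 41.1. With dTAG, CXCL1 lay below CXCL3, with 0.0755 and 0.168 CPM per kilobase against 0.306 and 0.205.

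**Figure D1:**
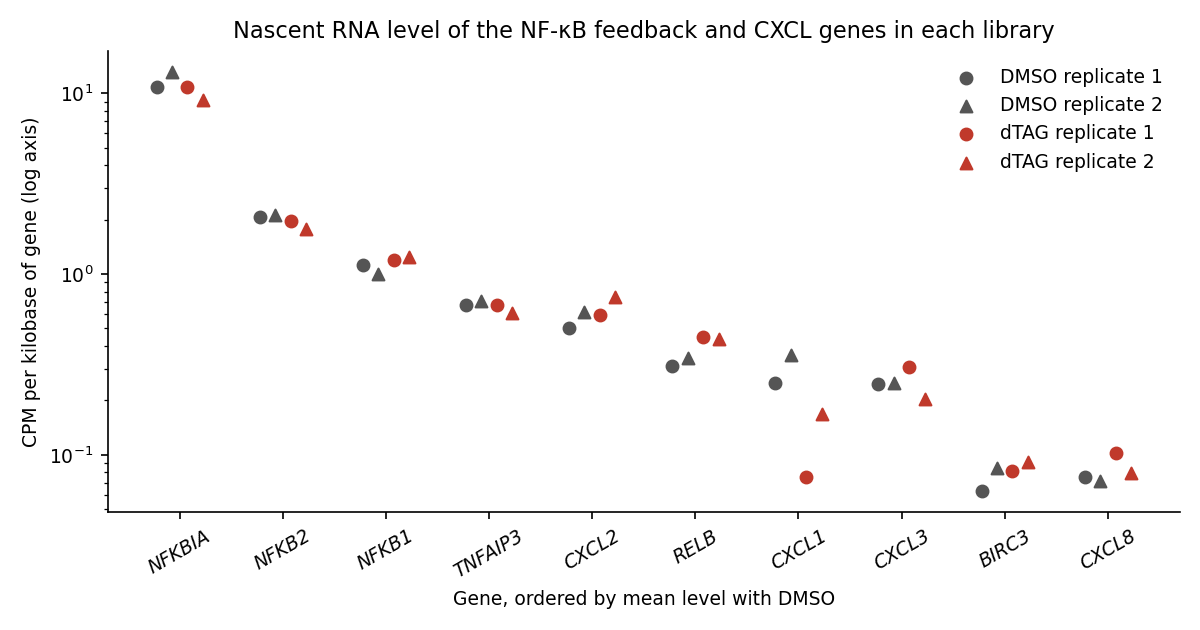
Level of each gene in each library, as CPM per kilobase of gene on a log axis, ordered by the mean with DMSO (gray, DMSO; red, dTAG; circles and triangles, replicates 1 and 2). NFKBIA lay above 9 CPM per kilobase in all 4 libraries, and CXCL1 is the gene whose dTAG points sit farthest below its DMSO points.

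Most of these genes were not called after KAP1 depletion. Of the 7 tested genes, RELB rose and none fell by edgeR's quasi-likelihood test, against 7.1% of all tested genes called in either direction, 3.44% higher and 3.66% lower. By an unadjusted p under 0.05, 2 of the 7 were higher and 1 was lower, against 12.3% and 14.3% of all tested genes. DESeq2 likewise called 1 higher and 0 lower, against 5.48% and 4.61% of all. The median log2 fold change of the 7 genes was 0.20, beside -0.01 for all tested genes. The dTAG libraries lay above both DMSO libraries for 2 of the 7 genes and below both for 3, while 58.8% of all tested genes did not overlap between groups in one direction or the other. Against so large a background share, the lack of overlap is not a result about these genes.

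**Figure D2:**
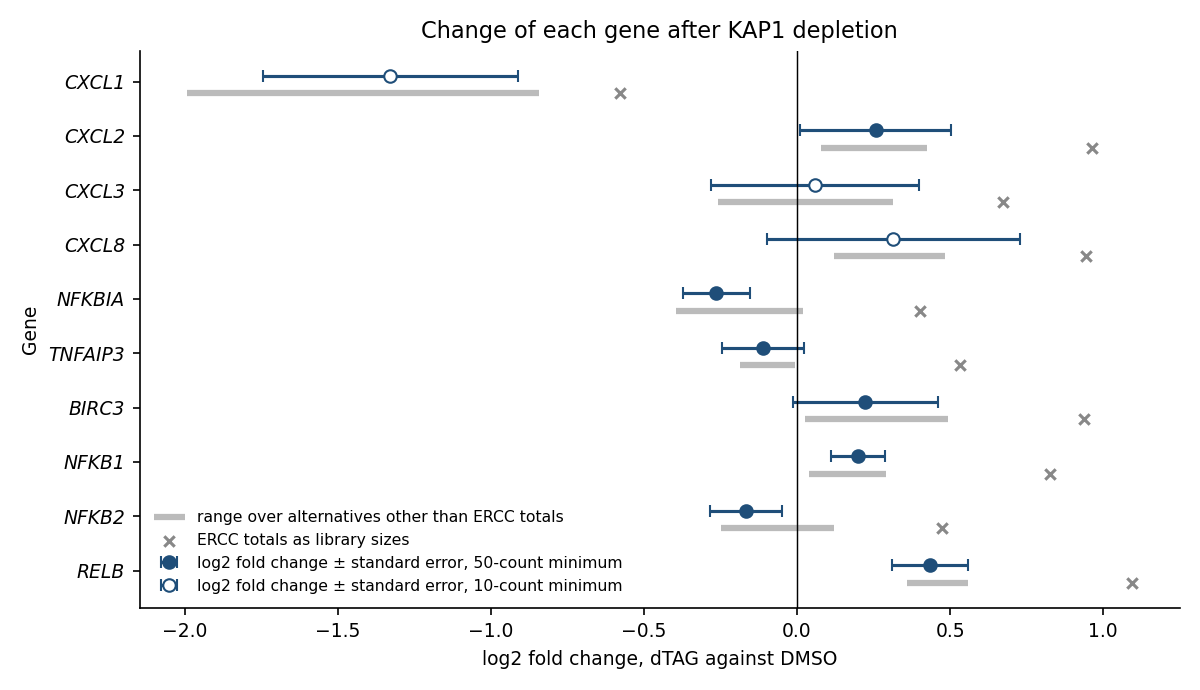
Log2 fold change of dTAG against DMSO for each gene with its standard error (filled, 50-count minimum; open, 10-count minimum), above the range over the alternative settings (gray bar) and the value with ERCC spike-in totals as library sizes (cross). RELB lies above 0 in all settings and CXCL1 below 0 in all, while the spike-in totals put NFKBIA, TNFAIP3 and NFKB2 above 0.

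CXCL1, CXCL2 and CXCL3 encode closely related ligands of the receptor CXCR2, and CXCL8 encodes interleukin-8, which binds CXCR1 and CXCR2. CXCL1 and CXCL8 are also on the study's lists of genes induced by serum. Levels of all 4 were low in these unstimulated cells. CXCL1 (ENSG00000163739.4, chr4:73869392-73871242, plus strand) had 46 and 66 counts with DMSO against 14 and 28 with dTAG, so that both dTAG libraries lay below both controls. In CPM the values were 0.465 and 0.662 with DMSO and 0.140 and 0.310 with dTAG, means of 0.563 ± 0.139 and 0.225 ± 0.121 (SD, n = 2). CXCL1 missed the 50-count minimum. Its values come from the same test at a 10-count minimum, where 13865 genes were tested and 6.05% were called, 2.94% lower.

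At that minimum, CXCL1 had a log2 fold change of -1.33 (standard error 0.42), and edgeR gave it an adjusted p of 0.057, which missed the threshold. The change ranked 14 among the falls of all 13865 genes. Such a size was common in genes of few counts: 70 genes had a log2 fold change of -1 or below, 51 of them had a mean count under 50, and 21 of the 70 were called. Under the alternatives at this minimum, the log2 fold change of CXCL1 was between -1.99 and -0.58. Where all 4 libraries were kept, its adjusted p by edgeR was between 0.0072 and 0.49. It was called with a likelihood ratio test (adjusted p = 0.0089), and barely so with overlapping genes left out or with no count minimum (0.049 in both), all by edgeR. Without DMSO replicate 1 CXCL1 stood at -1.56, and without dTAG replicate 1 it stood at -0.84.

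CXCL2 (ENSG00000081041.8, chr4:74097034-74099293, minus strand) was the only chemokine of the 4 with over 50 counts in every library. It had 113 and 139 counts with DMSO and 134 and 153 with dTAG, which overlapped, and a log2 fold change of 0.26 (standard error 0.25, adjusted p = 0.52 by edgeR). CXCL3 (ENSG00000163734.4, chr4:74036588-74038807, minus strand) had 54 and 55 counts with DMSO and 68 and 41 with dTAG, so that its dTAG libraries lay on either side of the controls. At the 10-count minimum its log2 fold change was 0.06 (standard error 0.34, adjusted p = 0.93 by edgeR), and it was below 0 with upper-quartile normalization, at -0.006. CXCL8 (ENSG00000169429.10, chr4:73740505-73743716, plus strand) was the weakest, with 24 and 23 counts with DMSO and 33 and 23 with dTAG. Its log2 fold change at that minimum was 0.32 (standard error 0.41, adjusted p = 0.66 by edgeR). At this depth, changes of CXCL3 and CXCL8 of the size of their standard errors could not be detected.

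Set against CXCL2 in the same library, which removes library size, CXCL1 had 0.407 and 0.475 counts per CXCL2 count with DMSO and 0.104 and 0.183 with dTAG. The ratio was lower in both dTAG libraries. For CXCL3, the same ratio was 0.478 and 0.396 with DMSO and 0.507 and 0.268 with dTAG, which overlapped. Both ratios rest on the few counts given above, and their differences were not tested. The reads of these genes can in part be shared between near-identical copies. Of all 50-base stretches, 3% of those in CXCL1, 8% in CXCL2 and 6.22% in CXCL3 also occurred in another gene of the cluster, and none did in CXCL8. How the counting treated such reads was not stated, so the split of reads between CXCL2 and CXCL3 is uncertain to that extent.

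The 4 chemokine genes lie in one cluster on chromosome 4. From CXCL8 to CXCL2 it spans 359 kb and holds 9 counted genes. The other 5, namely CXCL6, PF4V1, PF4, PPBP and CXCL5, had 0 counts in all 4 libraries, which allows up to 3 counts per library by counting error alone. CXCL1 thus had fewer counts with dTAG in a cluster where CXCL2 and CXCL3 overlapped between groups and 5 other chemokine genes gave no reads. The flanking genes had more reads. RASSF6 had 216 and 255 counts with DMSO and 177 and 195 with dTAG (log2 fold change -0.27, adjusted p = 0.44 by edgeR), and MTHFD2L had 8802 to 10467 counts over the libraries (0.18, adjusted p = 0.16 by edgeR).

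**Figure D3:**
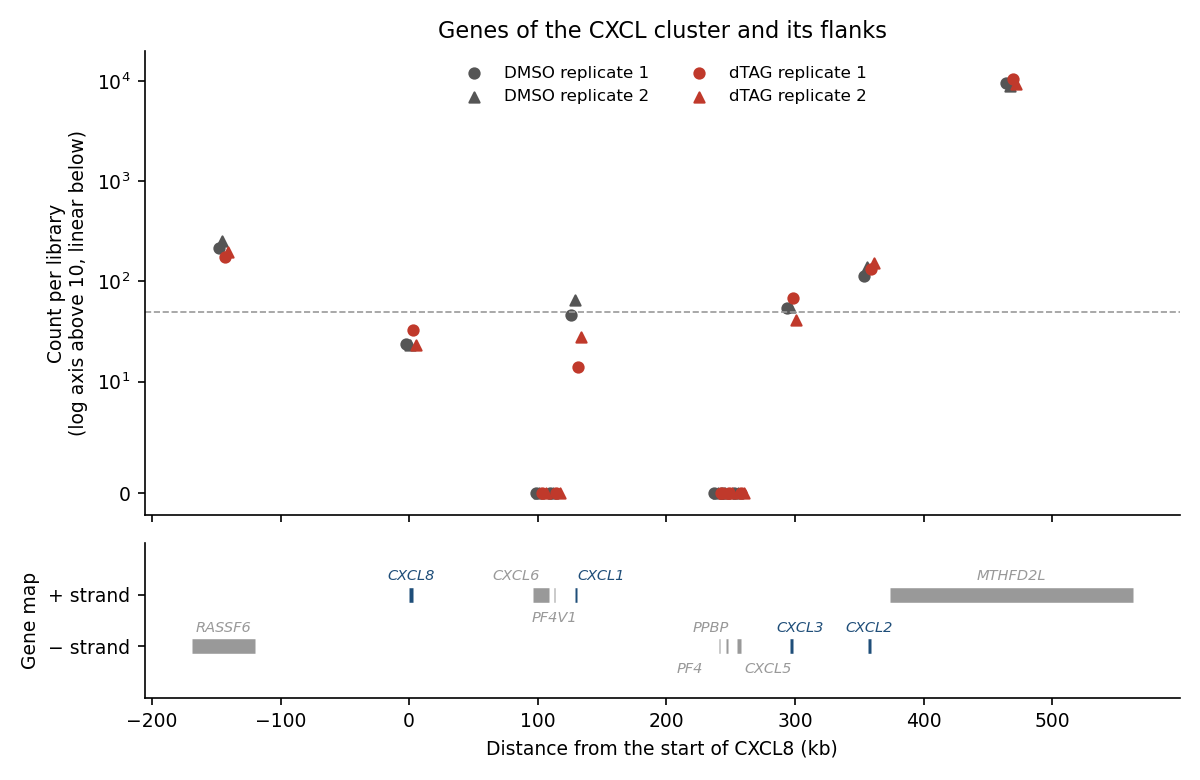
Counts per library of the genes in the CXCL cluster and its flanks by distance from the start of CXCL8 in kb (log axis above 10 counts, dashed line at 50), over a map of the genes by strand (blue, the 4 chemokine genes; gray, others). CXCL6, PF4V1, PF4, PPBP and CXCL5 are at 0 in all libraries, and CXCL1 is the chemokine gene whose dTAG counts, 14 and 28, lie below both DMSO counts.

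The inhibitors of the response, NFKBIA and TNFAIP3, were not called, nor was BIRC3. NFKBIA encodes IκBα, which binds Rel dimers and is resynthesized after each activation. NFKBIA (ENSG00000100906.10, chr14:35401510-35404749, minus strand) had 35.2 and 42.6 CPM with DMSO and 34.9 and 29.9 CPM with dTAG, means of 38.9 ± 5.24 and 32.4 ± 3.54 (SD, n = 2). The dTAG libraries lay below both controls, but dTAG replicate 1 did so by less than the spread within either group. Its log2 fold change was -0.26 (standard error 0.11, adjusted p = 0.13 by edgeR), and it was above 0, at 0.40 and 0.02, with ERCC totals as library sizes and with the ERCC factor as a covariate. Without DMSO replicate 1, the library with the lower NFKBIA value of the controls, the log2 fold change of NFKBIA was -0.39. Without DMSO replicate 2 it was -0.12. Over the alternatives that kept all 4 libraries, its adjusted p ran from 0.012 to 0.94 (both by edgeR).

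TNFAIP3 encodes A20, a ubiquitin-editing enzyme that shuts down signaling to IKK. TNFAIP3 (ENSG00000118503.14, chr6:137867187-137883312, plus strand) had 10.9 and 11.5 CPM with DMSO and 10.9 and 9.85 CPM with dTAG. The groups nearly touched, at 10.88 and 10.85 CPM, and the log2 fold change was -0.11 (standard error 0.13, adjusted p = 0.61 by edgeR), or 0.53 with ERCC totals as library sizes. BIRC3 encodes cIAP2, a ubiquitin ligase of the TNF receptor complexes that is itself an NF-κB target. BIRC3 (ENSG00000023445.13, chr11:102317449-102339403, plus strand) had 1.38 and 1.85 CPM with DMSO and 1.78 and 2.01 CPM with dTAG, which overlapped, and a log2 fold change of 0.22 (standard error 0.24, adjusted p = 0.56 by edgeR). An opposite-strand lncRNA overlaps TNFAIP3 over 1047 bases (WAKMAR2) and BIRC3 over 11138 bases (ENSG00000288528). The strand setting of the counting was not stated, so reads of those RNAs may be included.

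Among the subunit genes, RELB rose while NFKB1 and NFKB2 were not called. RELB encodes the Rel protein of the noncanonical pathway. RELB (ENSG00000104856.13, chr19:45001429-45038198, plus strand) had 1131 and 1262 counts with DMSO and 1651 and 1446 with dTAG. In CPM these were 11.4 and 12.7 against 16.5 and 16.0, means of 12.03 ± 0.87 and 16.3 ± 0.326 (SD, n = 2), and the gap between the groups was wider than the spread within either. The log2 fold change was 0.43 (standard error 0.12, adjusted p = 0.039 by edgeR). Each dTAG library was thus above each control, as for 28.1% of all tested genes.

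The RELB call was near the threshold, and the adjusted p over all alternatives ran from 0.00067 to 0.71. It was lost with upper-quartile normalization (log2 fold change 0.36, adjusted p = 0.084) and with ERCC totals as library sizes (1.10, adjusted p = 0.47), which raised the median of all genes to 0.63, and also without dTAG replicate 1 (0.42, adjusted p = 0.39) or dTAG replicate 2 (0.45, adjusted p = 0.71), each by edgeR.

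NFKB1 encodes p105, the precursor of the p50 subunit, and is the longest of the 10 genes. NFKB1 (ENSG00000109320.11, chr4:102501328-102617302, plus strand) had 131 and 115 CPM with DMSO and 139.0 and 143.5 CPM with dTAG, both above both controls. Its log2 fold change was 0.20 (standard error 0.087, adjusted p = 0.15 by edgeR). Dropping the first control library raised the NFKB1 value to 0.29, and dropping the second lowered it to 0.11. Among alternatives with no library dropped, the adjusted p of NFKB1 spanned 0.028 to 0.7, both from edgeR. NFKB2 (ENSG00000077150.18, chr10:102394109-102402529, plus strand), which encodes p100, had 17.5 and 18.0 CPM with DMSO and 16.6 and 14.9 CPM with dTAG, both below both controls. Its log2 fold change was -0.17 (standard error 0.12, adjusted p = 0.37 by edgeR), but 0.47 with ERCC totals as library sizes and 0.12 once trends on GC content and length were removed.

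The products of RELB and NFKB2 form one dimer, and the ratio of their counts within a library is free of library size. There were 0.654 and 0.704 RELB counts per NFKB2 count with DMSO and 0.992 and 1.08 with dTAG. The ratio of RELB to RELA, the main subunit of canonical dimers, was 0.335 and 0.345 with DMSO and 0.485 and 0.494 with dTAG. Both ratios were higher in both dTAG libraries, by more than the gap within either group. The ratio of NFKBIA to NFKB1 was 0.270 and 0.369 with DMSO and 0.251 and 0.208 with dTAG, lower in both dTAG libraries with a gap smaller than the spread between the controls. These ratios are not free of trends on GC content and length. With those trends removed, the log2 fold change was 0.53 for RELB, 0.12 for NFKB2, 0.12 for RELA, -0.02 for NFKBIA and 0.04 for NFKB1.

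Base composition moved with the fold changes in these libraries. The Spearman rho of the log2 fold change over the 12612 tested genes was -0.56 with the GC content of the gene and 0.42 with its length, genes not being independent replicates. RELB went the other way, since its GC content was 51.3% and for the 1988 genes between 50% and 55% GC the median was -0.14 and the 95th percentile 0.16. CXCL2, which was not called, was also just above its interval of 45% to 50% GC, at 0.257 (standard error 0.25) against a 95th percentile of 0.248. NFKBIA, at 56.5% GC, lay close to the median of its interval, -0.20, and NFKB1, at 37.9% GC, lay close to that of its own, 0.125. With each library's trends on GC content and length removed, RELB was at 0.53 (adjusted p = 0.00082 by edgeR), while NFKBIA was at -0.02 and NFKB1 at 0.04.

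**Figure D4:**
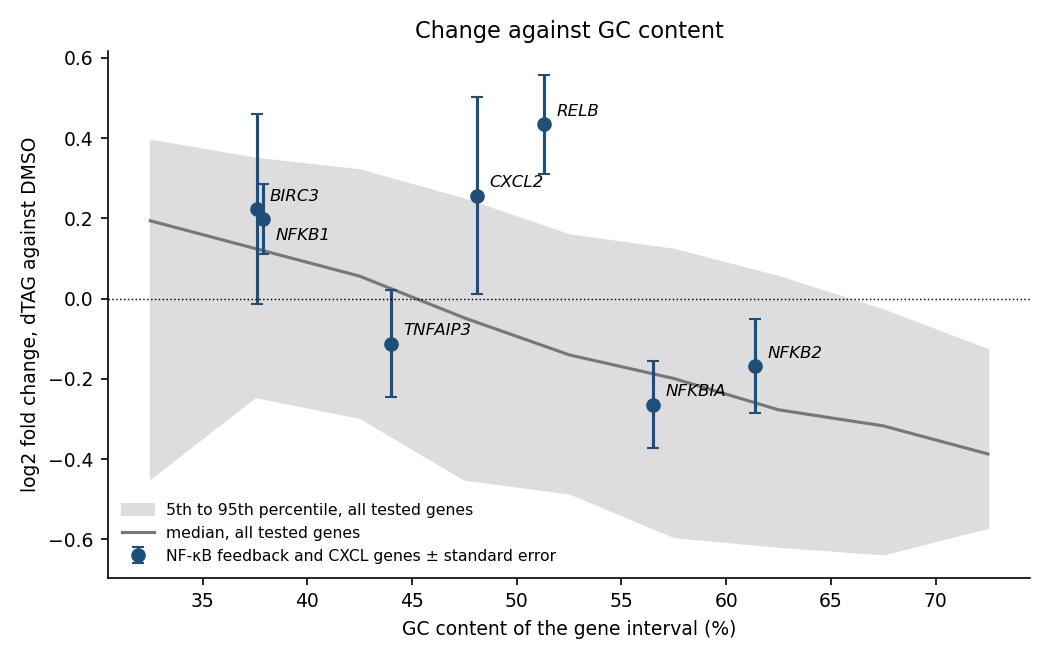
Log2 fold change of dTAG against DMSO by GC content of the gene (%) for the 7 tested genes with standard errors (blue), over the median (gray line) and the span from the 5th to the 95th percentile (gray band) of all tested genes in 5% intervals. RELB and, barely, CXCL2 lie above the band, and NFKBIA and NFKB1 lie within it near the median.

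By distance of centered log2 CPM over the 4 libraries, the gene most like RELB was GOLT1A (0.0118), and 31 genes lay within 0.1 of it. NFKBIA was most like FGFR4 (0.0109), with 277 genes within 0.1, so its profile was a common one. CXCL2 was most like RFLNA (0.0755). With only 4 libraries, such likeness describes these samples alone.

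The rest of the pathway was read from 7 lists of 145 genes, of which 78 were tested. In all, 7 of the 78 rose (8.97%, beside 3.44% of all tested genes) and none fell by edgeR's quasi-likelihood test. By an unadjusted p under 0.05, 16 of the 78 were higher and 9 lower, beside 12.3% and 14.3% of all tested genes, and DESeq2 called 10 higher and 2 lower, beside 5.48% and 4.61%. The median log2 fold change of the 78 was 0.005, close to that of all tested genes, -0.01.

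The receptors and ligands around the 4 chemokines mostly had few or no counts. Of 30 other chemokine ligand genes, 15 had 0 counts in all libraries and only CXCL16 was tested (log2 fold change -0.06, adjusted p = 0.77 by edgeR, and above 0 with ERCC totals, at 0.55). None of 17 chemokine receptor genes reached the minimum. CCR10, whose gene overlaps CNTNAP1, had 86 and 109 counts with DMSO and 54 and 41 with dTAG. At the 10-count minimum its log2 fold change was -0.97 (standard error 0.31, adjusted p = 0.063 by edgeR). The other receptor genes fitted there were ACKR2 (0.05), ACKR4 (-0.12) and CCR6 (0.38), none of them called. CXCR2, the receptor of all 4 chemokines, had 14 and 15 counts with DMSO and 5 and 15 with dTAG. Of 21 receptors that signal to NF-κB, 15 were tested and none was called by edgeR, beside 7.1% of all tested genes. By an unadjusted p under 0.05, 3 were higher and 1 lower, beside 12.3% and 14.3% of all. DESeq2 called 2 higher and 0 lower, beside 5.48% and 4.61% of all. The death receptor gene TNFRSF10A had the lowest p of the 15 (log2 fold change 0.25, standard error 0.082, adjusted p = 0.066 by edgeR).

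Of the 7 other Rel and IκB genes, all tested, none was called by edgeR, beside 7.1% of all tested genes. By an unadjusted p under 0.05, 0 were higher and 2 lower, beside 12.3% and 14.3% of all. DESeq2 called 0 higher and 1 lower, beside 5.48% and 4.61% of all. The gene called by DESeq2 was BCL3, a nuclear IκB protein that works with p50 and p52 dimers. BCL3 had 14.5 and 14.97 CPM with DMSO and 11.8 and 10.7 CPM with dTAG. The log2 fold change of BCL3 was -0.39 (standard error 0.13), or 0.25 with ERCC totals, and its adjusted p was 0.063 by edgeR, 0.035 by DESeq2 and between 0.0034 and 0.93 over all alternatives. RELA had 34.1 and 36.6 CPM with DMSO and 34.0 and 32.4 CPM with dTAG (-0.09, adjusted p = 0.56 by edgeR), and its log2 fold change was above 0 with ERCC totals (0.56), the ERCC factor (0.008) or the trends removed (0.12).

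Of 14 genes of the IKK complex and its upstream kinases, all tested, 1 rose (7.14%) and none fell by edgeR. Among all tested genes, 3.44% rose and 3.66% fell. By an unadjusted p under 0.05, 4 of the 14 were higher and 1 lower, beside 12.3% and 14.3% of all. DESeq2 called 1 higher and 0 lower, beside 5.48% and 4.61% of all. The gene called by edgeR was MAP3K14, which encodes NIK, with 125 and 131 CPM with DMSO and 189 and 165 CPM with dTAG (log2 fold change 0.47, standard error 0.09, adjusted p = 0.0032 by edgeR). Of 28 tested ubiquitin enzymes and adaptors, 3 rose (10.7%) and none fell by edgeR, beside 3.44% and 3.66% of all. By an unadjusted p under 0.05, 5 of the 28 were higher and 3 lower, beside 12.3% and 14.3% of all. DESeq2 called 4 higher and 1 lower, beside 5.48% and 4.61%. MALT1, a protease that cleaves inhibitors of NF-κB signaling such as A20, had 130 and 116 CPM with DMSO and 188 and 207 CPM with dTAG (0.68, standard error 0.09, adjusted p = 8.2e-05 by edgeR). TRAF3, an adaptor that holds NIK at a low level by directing its degradation, had 180 and 163 CPM with DMSO and 212 and 213 CPM with dTAG (0.31, adjusted p = 0.038 by edgeR).

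TAX1BP1, an adaptor of A20, had a log2 fold change of 0.33 (adjusted p = 0.04 by edgeR), and its gene overlaps JAZF1. The ratio of MAP3K14 to TRAF3 counts was 0.694 and 0.804 with DMSO and 0.890 and 0.775 with dTAG, which overlapped.

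Of 13 tested genes among 27 other NF-κB target genes, 3 rose (23.1%, beside 3.44% of all tested genes). None fell by edgeR, beside 3.66% of all. By an unadjusted p under 0.05, 4 of the 13 were higher and 2 lower, beside 12.3% and 14.3% of all. DESeq2 called 3 higher and 0 lower, beside 5.48% and 4.61% of all. The genes called by edgeR were LAMB3, a laminin chain (log2 fold change 0.56, adjusted p = 0.001 by edgeR), BCL2L1, which encodes the survival protein BCL-XL (0.49, adjusted p = 0.0071), and SDC4, a cell surface proteoglycan (0.40, adjusted p = 0.017). For LAMB3 the values were 64.2 and 57.8 CPM with dTAG against 38.7 and 43.98 CPM with DMSO. Among the cytokine and chemokine genes of these lists, only CXCL16, CSF1 and LIF were tested, and none was called by edgeR. The others, such as IL6, TNF, LTB, IL1A, IL1B, CSF2 and CSF3, missed the count minimum and could not be called. Of the 7 genes called in the lists, none was called with ERCC totals as library sizes, MALT1 alone was called without dTAG replicate 1, and MALT1 and LAMB3 were called without dTAG replicate 2. TAX1BP1 and TRAF3 also lost their calls with upper-quartile normalization (adjusted p = 0.07 and 0.063 by edgeR), and TAX1BP1 did with the ERCC factor (0.40).

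**Figure D5:**
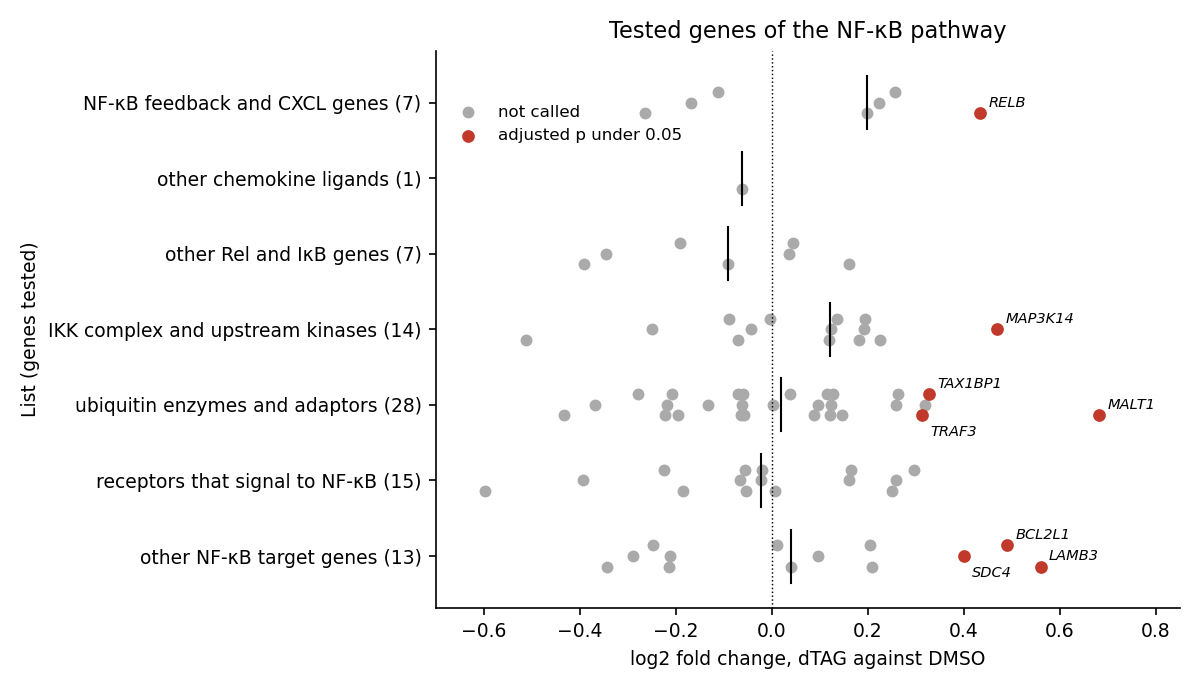
Log2 fold change of dTAG against DMSO for each tested gene of the pathway by list, with the number tested in brackets (red, adjusted p under 0.05; gray, not called; black bar, median of the list). The called genes, RELB and 7 others, all lie above 0, and the medians of the pathway lists lie between -0.092 and 0.121, below the 0.199 of the NF-κB feedback and CXCL genes.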

How the data were processed

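TT-Seq libraries of HCT116 KAP1 dTAG cells were analyzed as 2 DMSO and 2 dTAG biological replicates. The authors deposited raw counts per whole protein-coding gene and ERCC spike-in RNA, made from paired reads of 50 bases with Trim Galore 0.6.4, STAR on hg38 and featureCounts (Subread 1.6.3). The strand setting and the treatment of shared reads are not given in the sources used here. The study's spike-in normalization (RUVSeq) is not described in full, so TMM was used.

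Genes that reached 50 counts in each library were fitted in R 4.3.3 with edgeR 4.0.16 (quasi-likelihood F test, two-sided, no replicate block) and adjusted by Benjamini-Hochberg over all tested genes. CPM used TMM-scaled library sizes, with 99.9% of gene counts in tested genes. The standard error, the absolute log2 fold change over the square root of F, covers the spread between 2 libraries per group. CXCL1, CXCL3 and CXCL8 were read at a 10-count minimum, chosen after seeing the data. On simulated data with 200 of 12612 genes changed, the test recovered 84% of 1.5-fold and 95% of 2-fold changes. The simulated counts held no trends on GC content or length. The rates pool genes of all levels and do not give the rate for genes of few counts.

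Alternatives were DESeq2 1.42.0, upper-quartile normalization, ERCC totals, an ERCC factor from 14 RNAs, a likelihood ratio test, other count minimums, genes that overlap no other, trends on GC content and length removed (lowess, span 0.3), a replicate block, and each library left out. The named genes were the 10 members, TRIM28, and in each list the called genes (up to 4) or else those of lowest p and highest level, with the closest profile named per role. Members and lists were chosen with earlier results of these data known. Tables were read in Python 3.11.15, and promoters are RefSeq's.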

Additional observations from a re-analysis of the deposited data

How the results depend on the processing

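The RELB log2 fold change stayed above 0 under all 15 alternatives and was called under 10 of them. The number of the 10 genes called, 1 in the report, was 0 with upper-quartile normalization, ERCC totals or the replicate block. It was 2 with no count minimum and 3 with a replicate block whose numbers were crossed between the groups. Their median log2 fold change, 0.20 in the report, was 0.82 with ERCC totals, which raised the median of all genes to 0.63, and 0.052 with the ERCC factor, 0.10 with trends on GC content and length removed, and 0.027 to 0.225 with 1 library left out.

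With ERCC totals, log2 fold changes turned from below to above 0 for NFKBIA (0.40), TNFAIP3 (0.53), NFKB2 (0.47), CXCL16 (0.55), BCL3 (0.25), RELA (0.56) and TRIM28 (0.28), and with the ERCC factor for NFKBIA (0.018) and RELA (0.008). With the trends removed they did for NFKB2 (0.12), CXCL16 (0.089) and RELA (0.12), and without DMSO replicate 1 for CXCL16 (0.041, within -0.16 to 0.041 with 1 library left out). CXCL3 was at -0.006 with upper-quartile normalization and at -0.259 without dTAG replicate 1, within -0.259 to 0.314 with 1 library left out. The causes were not tested, and no other reversal occurred among the named genes. Shares of stretches found elsewhere in the cluster were 0% for CXCL1, 3.66% for CXCL2 and 3.73% for CXCL3 at 100 bases.

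Over all genes, 895 were called, of which 48.5% were higher. The count was 0 with ERCC totals (229 at an unadjusted p under 0.05), 1593 with the likelihood ratio test, 2280 with the trends removed (58.8% higher), 1417 with no count minimum and 69 to 5491 with 1 library left out. The share called higher was 22.7% of 1124 with upper-quartile normalization, 60.2% of 1322 with the ERCC factor and 69.6% of 69 without dTAG replicate 2.

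Same-numbered libraries deviated oppositely (r = -0.24 across genes, 2 pairs), so the numbers were not taken to pair samples. With the replicate block, RELB (log2 fold change 0.44, adjusted p = 0.13), BCL2L1 (adjusted p = 0.091), TAX1BP1 (0.13) and TRAF3 (0.19) were not called by edgeR, nor was TRIM28 (0.059). The block gave 340 calls and the numbers crossed 3190, a setting chosen after seeing the data. With the numbers crossed, NFKBIA (adjusted p = 0.012) and NFKB1 (0.028) were also called by edgeR. CXCL1 was not in that fit but was called in the crossed fit at the 10-count minimum (adjusted p = 0.0072 by edgeR).

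For the IKK list, 1 in the report, the count was 0 with ERCC totals, 2 with upper-quartile normalization, the likelihood ratio test or no minimum, 3 with the ERCC factor or trends removed, 6 crossed, and 0 to 8 with 1 library left out. For ubiquitin enzymes and adaptors, 3 in the report, it was 0 with ERCC totals, 1 with the block, 5 with DESeq2, the likelihood ratio test or no minimum, 6 with the ERCC factor, 8 with trends removed or crossed, and 1 to 13 with 1 library left out. For receptors, 0 in the report, it was 1 with no minimum, 2 with DESeq2, 3 with the likelihood ratio test, 4 with the ERCC factor or crossed, 6 with trends removed, and 0 to 5 with 1 library left out. For other targets, 3 in the report, it was 0 with ERCC totals, 5 with the ERCC factor or crossed, 6 with trends removed, and 0 to 8 with 1 library left out. For other Rel and IκB genes, 0 in the report, it was 1 with DESeq2, upper-quartile normalization, the likelihood ratio test or no minimum, 2 crossed, and 0 to 4 with 1 library left out.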
